A study of Mus musculus with 24 samples.

Results

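The genes described here encode the pre-B cell receptor, its surrogate light chain and proteins that work with it on B-lineage cells. They are 8 genes of the 17741 genes measured on the arrays: Vpreb1, Igll1 and Vpreb3, Cd79a and Cd79b, Blnk, Ms4a1 and Fcrla. They were chosen by name, with earlier results of these data known. Each was read by the only probe that carried its symbol, so no second probe of a member could be set beside it. The values are log2 expression values of 24 one-colour Cy5 arrays, hybridised with RNA of cells sorted from the marrow of C57BL/6 mice.

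Of the 4 groups, a pair held LSK cells, the marrow fraction without lineage markers and with Sca1 and Kit in which blood stem cells are enriched, and a pair held myeloid progenitors. In each population, mice labelled WT were set against mice labelled BAP1 KO, in which tamoxifen injection was used to delete Bap1 throughout the body. BAP1 is an enzyme that removes ubiquitin from histone H2A. Each group had 2 mice, each measured on 3 arrays, and the 8 mice were all different. The sources used here name no Cre driver, age or time after tamoxifen, and the protocol text does not separate the tamoxifen treatment of WT from that of KO mice.

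The pre-B cell receptor is an early signalling receptor of the B lineage. It pairs a newly made immunoglobulin heavy chain with a surrogate light chain built from VpreB1 and lambda-5, the product of Igll1, before any true light chain exists. Signals pass through the Cd79a and Cd79b chains to cytoplasmic kinases and to the adaptor BLNK. Transcripts of the surrogate light chain and of Cd79 genes are known to appear early, in lymphoid-primed progenitors and pro-B cells. In bulk samples such as these, fewer cells of a type and less RNA per cell cannot be told apart.

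Facts of the series that bear on the members are few. Across probes, the median r was 0.994 between arrays of a mouse and 0.987 between mice of a group. The only Bap1 probe read 11.45 and 11.55 in WT against 11.84 and 11.96 in KO LSK mice (0.40 ± 0.18 SE, limma adjusted p = 0.321), and 0.20 ± 0.18 higher in KO myeloid progenitors (adjusted p = 0.843). Whether that probe lies in the deleted stretch is unknown from the sources used here, so it does not check the labels. The Y-linked gene Kdm5d read 7.88 in mouse 1 (WT, LSK) and 8.15 in mouse 5 (WT, myeloid progenitors) against 5.93 to 6.02 in the other 6 mice. Its signal was thus seen in WT mice only and was not balanced between the genotypes. Most markers separated the WT populations as labelled. Of 7 LSK markers 5 passed as higher in WT LSK cells, and of 9 myeloid progenitor markers 6 passed as lower. The stem cell gene Mecom was 4.32 ± 0.26 log2 units higher in WT LSK cells (limma adjusted p = 2.79e-05), and the neutrophil elastase gene Elane differed by -4.33 ± 0.39 (adjusted p = 0.000283). Kit, a marker in both lists, did not pass (0.22, adjusted p = 0.571). Among KO mice, 5 LSK markers passed as higher and 1 as lower in LSK cells, and 5 myeloid progenitor markers passed as lower.

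The surrogate light chain genes fell most among the members, and they fell in both populations. In LSK cells 6 of the 8 members were called lower in KO mice by limma (Benjamini-Hochberg adjusted p under 0.05), where 2.90% of all genes were. In myeloid progenitors 5 of 8 were called lower, where 1.74% of all genes were. The members were chosen with earlier results of these data known, so these counts are not a test of the set. Taking the median array of each mouse, 5 were called in LSK cells, without Blnk, and leaving out mouse 5, 6, 7 or 8, or mice 1 and 5 together, 3 were called in myeloid progenitors. The median change of the members was -1.50 in LSK cells and -0.67 in myeloid progenitors on the log2 scale, against 0.02 and 0.00 over all genes. Both KO mice lay below both WT mice for 8 of 8 members in LSK cells (20.9% of all genes) and for 6 of 8 in myeloid progenitors (20.8%). By role, the surrogate chain genes Vpreb1 and Igll1 and the related Vpreb3 fell by several log2 units, and the signalling chain genes Cd79a and Cd79b did not pass. The adaptor gene Blnk passed in LSK cells with arrays that disagreed, and the late B-cell genes Ms4a1 and Fcrla fell by less than 1 log2 unit.

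**Figure D1:**
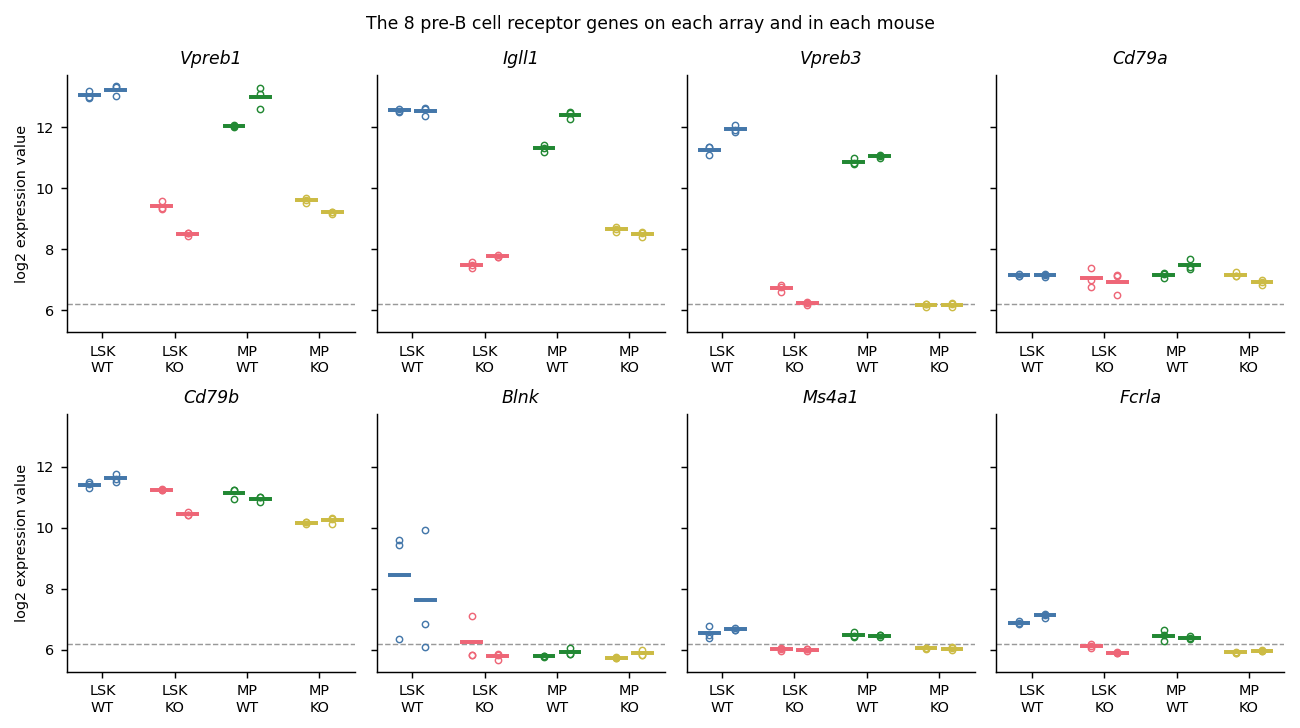
Log2 expression value of the 8 genes on every array (open circles) and the mean of each mouse (bars), by group, with LSK for LSK cells and MP for myeloid progenitors; the dashed line marks 6.20, the 25th percentile of probe means. Vpreb1, Igll1 and Vpreb3 separate WT from KO in both populations, while the Blnk circles of 1 mouse lie up to 3.82 log2 units apart.

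Vpreb1 encodes the part of the surrogate light chain that resembles a variable domain. It read 13.06 and 13.23 in the WT LSK mice against 9.42 and 8.50 in the KO LSK mice, and 12.04 and 13.01 against 9.62 and 9.21 in myeloid progenitors. Every KO array, the highest at 9.70, lay below every WT array, the lowest at 12.00. The change was -4.19 ± 0.37 in LSK cells (SE, 2 mice per group, 18.2-fold lower, limma adjusted p = 0.000652). In myeloid progenitors it was -3.11 ± 0.37 (8.61-fold lower, limma adjusted p = 0.00313). Even so, Vpreb1 in KO mice stayed above the middle of the arrays, at the 69.5th percentile of probes in LSK cells and the 73.5th in myeloid progenitors.

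Igll1 encodes lambda-5, which supplies the constant-like domain of the surrogate light chain. It read 12.56 and 12.54 in WT LSK mice and 7.49 and 7.78 in KO LSK mice. In myeloid progenitors it read 11.32 and 12.42 in WT and 8.66 and 8.51 in KO mice. WT and KO values were thus apart in both populations, and the KO LSK mice were the lowest of all. The change was -4.91 ± 0.31 in LSK cells (30.1-fold lower, limma adjusted p = 7.56e-05) and -3.28 ± 0.31 in myeloid progenitors (9.74-fold lower, limma adjusted p = 0.000581).

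Vpreb3 encodes a VpreB-like protein of the endoplasmic reticulum that binds immunoglobulin chains. Its values were 11.27 and 11.95 in WT LSK mice and 6.74 and 6.23 in KO LSK mice, and 10.86 and 11.05 in WT and 6.17 and 6.18 in KO myeloid progenitor mice. The KO myeloid progenitor mean lay under 6.20, the 25th percentile of probe means, called the low end of the arrays here. Log2 changes that reach this level are given without a fold, since a reading there need not follow the amount of RNA. The change was -5.13 ± 0.26 in LSK cells (limma adjusted p = 1.86e-05) and -4.78 ± 0.26 in myeloid progenitors (adjusted p = 3.91e-05). These calls, and those of Vpreb1 and Igll1, held in each of the 17 alternative fits of each change, which included leaving out each mouse.

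The promoters of the surrogate light chain genes are shown with that of Cd79a because all 4 genes are textbook targets of early B-lineage factors, while in these data only the first 3 passed the test. Each line gives the 250 bases before the RefSeq transcript start (GRCm38.p6), 5′ to 3′ on the strand of the gene. The windows are chr16:16869256-16869505 on the minus strand for Vpreb1, chr16:16863986-16864235 on the minus strand for Igll1, chr10:75948050-75948299 on the plus strand for Vpreb3 and chr7:24897247-24897496 on the plus strand for Cd79a. Capitals mark matches, on either strand, to 4 motifs: the core of the EBF1 motif (CCCNNGGG), the letters CTCAAGGG known from an EBF1 site of Cd79a, the E-box bound by E2A proteins (CAGNTG) and the octamer (ATTTGCAT).
Vpreb1: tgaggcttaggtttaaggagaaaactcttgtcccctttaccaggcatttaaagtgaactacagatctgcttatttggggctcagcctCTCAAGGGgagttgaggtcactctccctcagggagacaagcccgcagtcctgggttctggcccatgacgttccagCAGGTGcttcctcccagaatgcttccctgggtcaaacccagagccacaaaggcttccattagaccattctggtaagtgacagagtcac
Igll1: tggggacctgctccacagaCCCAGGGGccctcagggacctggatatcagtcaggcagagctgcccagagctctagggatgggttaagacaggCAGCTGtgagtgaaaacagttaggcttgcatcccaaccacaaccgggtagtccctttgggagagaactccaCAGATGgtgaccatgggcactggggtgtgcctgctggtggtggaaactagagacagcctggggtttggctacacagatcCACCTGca
Vpreb3: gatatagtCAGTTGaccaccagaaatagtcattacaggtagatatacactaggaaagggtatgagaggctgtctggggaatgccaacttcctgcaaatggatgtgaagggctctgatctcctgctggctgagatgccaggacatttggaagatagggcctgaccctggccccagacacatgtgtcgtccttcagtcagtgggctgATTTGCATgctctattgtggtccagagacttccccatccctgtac
Cd79a: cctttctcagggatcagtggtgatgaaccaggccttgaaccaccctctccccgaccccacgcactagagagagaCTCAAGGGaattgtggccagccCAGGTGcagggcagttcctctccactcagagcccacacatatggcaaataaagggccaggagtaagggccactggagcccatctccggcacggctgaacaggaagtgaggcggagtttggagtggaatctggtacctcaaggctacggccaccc

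Vpreb1, which fell, and Cd79a, which did not pass the test, both held CTCAAGGG, at 163 to 156 and at 176 to 169 bases before the start. That string was searched after the sequences had been seen, and 1.01% of 32851 promoter windows of this length held it. Igll1 held the EBF1 core as CCCAGGGG at 231 to 224 bases before the start, a motif found in 11.8% of windows. Each of the 4 promoters held an E-box, as did 44.8% of all windows. Vpreb3 held the octamer at 45 to 38 bases before the start, a string found in 1.60% of windows, and Blnk held it at 130 to 123. Igll1 and Vpreb1 lie next to each other on chromosome 16 with 0 annotated genes between them. A promoter sequence was at hand for 6 of the 8 members, and a match describes letters, not binding.

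The signalling chain genes did not pass the test in either population. Cd79b, the Ig-beta chain, was bright in every group: 11.40 and 11.62 in WT LSK mice, 11.25 and 10.45 in KO LSK mice, 11.13 and 10.96 in WT myeloid progenitor mice and 10.16 and 10.24 in KO ones. Both KO mice lay below both WT mice in each population, by little for mouse 2. The change was -0.66 ± 0.26 in LSK cells (95% interval -1.24 to -0.09, limma adjusted p = 0.226). In myeloid progenitors it was -0.84 ± 0.26 (-1.42 to -0.27, adjusted p = 0.167). Neither passed, and the intervals leave room for a decrease of over 1 log2 unit as well as for a small one.

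Mouse 2 and mouse 4 decided the Cd79b value in LSK cells. Without mouse 2 the change was -1.07 (limma adjusted p = 0.0408), and without mouse 4 it was -0.26 (adjusted p = 0.605). In myeloid progenitors Cd79b passed in fits without mouse 2 (adjusted p = 0.0469) or 4 (adjusted p = 0.0463), at an equal size, both of which are LSK mice and enter only through the shared spread. A fit of single arrays, with the mouse entered as a random block, called it in both populations (limma adjusted p = 0.00566 and 0.000717). That fit counts repeat arrays of the same 2 mice per group, under 1 correlation between arrays of a mouse shared by all probes.

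Cd79a, the Ig-alpha chain, read close to the median probe mean of 7.20 in every mouse. Its values were 7.15 and 7.14 in WT LSK mice against 7.05 and 6.93 in KO ones, and 7.15 and 7.49 in WT myeloid progenitor mice against 7.17 and 6.93 in KO ones. The myeloid progenitor groups overlapped. Arrays of KO LSK mouse 4 ran from 6.49 to 7.15, wider than the gap between the genotypes. The change was -0.16 ± 0.16 in LSK cells (95% interval -0.51 to 0.20, limma adjusted p = 0.724) and -0.27 ± 0.16 in myeloid progenitors (-0.62 to 0.08, adjusted p = 0.647). A decrease of the size seen for Vpreb1, Igll1 or Vpreb3 lies outside both intervals. How this probe responds to the amount of Cd79a RNA was not tested.

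**Figure D2:**
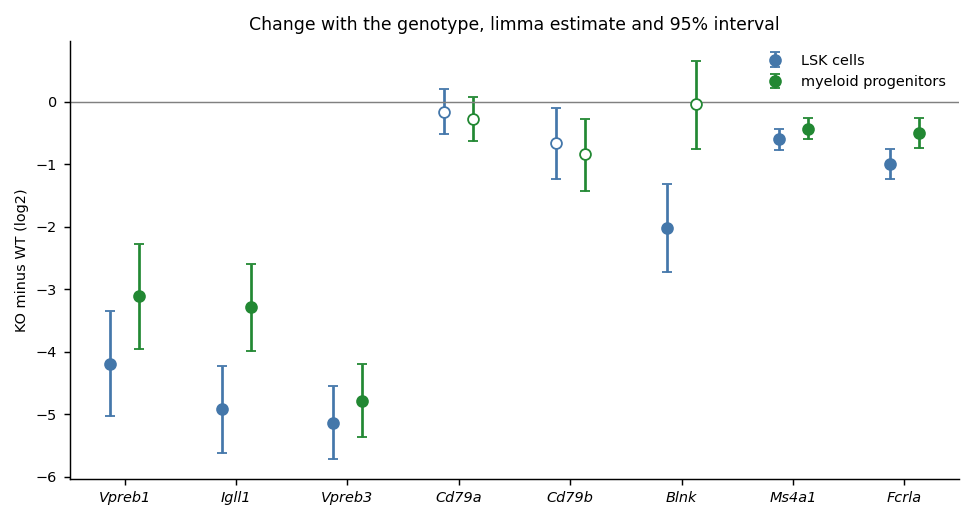
Change with the genotype for each gene (KO minus WT, log2), as the limma estimate with its 95% interval, in LSK cells (blue) and myeloid progenitors (green); filled points passed the adjusted threshold of 0.05 and open points did not. Vpreb1, Igll1 and Vpreb3 lie between -5.13 and -3.11, and Cd79a lies within 0.27 of 0.

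Blnk, the adaptor that links the receptor to downstream enzymes, had a mean that hid a disagreement between arrays. The 3 arrays of WT LSK mouse 1 read 9.58, 6.36 and 9.42, those of WT LSK mouse 3 read 6.83, 9.92 and 6.10, and those of KO LSK mouse 2 read 5.83, 5.82 and 7.11. The other 5 mice stayed between 5.66 and 6.05 on all arrays. A range of at least 3 log2 units within a mouse was found in 144 genes (0.812% of all), and in at least 2 mice in 19 genes (0.107%), so that the arrays of 1 mouse seldom split in this way. The cause of the split was not tested.

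On mouse means, Blnk read 8.45 and 7.62 in WT LSK mice against 6.25 and 5.77 in KO ones, and 5.78 and 5.92 against 5.74 and 5.88 in myeloid progenitors. The LSK change of -2.02 ± 0.29 passed (limma adjusted p = 0.0181), and the KO group lay at the low end. It did not pass in the fit of single arrays (adjusted p = 0.208), nor with the array number added as a replicate block (0.251), nor with the median array of each mouse (-2.30, adjusted p = 0.333), nor without mouse 8 (-2.02, adjusted p = 0.0513). Over all its alternative fits the limma adjusted p ran from 0.000604 to 0.333. In myeloid progenitors, where both groups lay at the low end and overlapped, the difference was -0.04 ± 0.29 (limma adjusted p = 0.994).

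Ms4a1 encodes CD20 and Fcrla an intracellular Fc receptor-like protein, both best known from later B cells, and both read in the lower part of the arrays. Ms4a1 read 6.54 and 6.67 in WT LSK mice against 6.02 and 5.99 in KO LSK mice, and 6.47 and 6.46 against 6.05 and 6.03 in myeloid progenitors. Fcrla read 6.87 and 7.13 against 6.13 and 5.90 in LSK cells, and 6.46 and 6.40 against 5.91 and 5.96 in myeloid progenitors. WT and KO mice did not overlap for either gene, and all KO group means lay at the low end.

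In LSK cells Ms4a1 fell by 0.60 ± 0.08 (limma adjusted p = 0.00195) and Fcrla fell by 0.99 ± 0.11 (adjusted p = 0.000866), and these calls held in each of their 16 alternative fits. The filter at the 50th percentile of probe means removed both genes and could not be applied to them. In myeloid progenitors Ms4a1 fell by 0.43 ± 0.08 (adjusted p = 0.0154) and Fcrla fell by 0.49 ± 0.11 (adjusted p = 0.0403). Those calls were lost without mouse 5, 6, 7 or 8, at -0.43 to -0.42 for Ms4a1 (adjusted p up to 0.135) and -0.53 to -0.46 for Fcrla (adjusted p up to 0.202). They were also lost once mice 1 and 5, which had a Kdm5d signal, were removed, at -0.42 for Ms4a1 and -0.46 for Fcrla. Both mice are WT, so that fit leaves a single WT mouse in each population.

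No member passed the test of a difference between the changes in LSK cells and in myeloid progenitors, a contrast in which limma called 0.0620% of all genes in either direction. At an unadjusted p under 0.05, 6.35% of all genes differed in either direction and 3.38% in the direction of a lower value in LSK cells. At that level 3 of 8 members differed: Igll1, Blnk and Fcrla, each with the larger decrease in LSK cells. Readings at the low end limit the Blnk and Fcrla differences. Blnk lay there in KO LSK (6.01) and both myeloid progenitor groups (5.85 in WT, 5.81 in KO). Fcrla lay there in both KO groups (6.01 in LSK cells, 5.93 in myeloid progenitors). The Igll1 change in LSK cells minus that in myeloid progenitors was -1.63 (95% interval -2.61 to -0.65, limma adjusted p = 0.363), and it passed in the fit of single arrays (adjusted p = 0.000504). For Vpreb1 the difference was -1.08 (-2.27 to 0.11, adjusted p = 0.851) and for Vpreb3 -0.35 (-1.17 to 0.48, adjusted p = 0.921). Fcrla differed by -0.49 (-0.83 to -0.15, adjusted p = 0.483). The Blnk difference of -1.98 ± 0.41 (adjusted p = 0.319) passed without mouse 3 (-2.39, adjusted p = 0.00892) and rests on the arrays that disagree.

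Levels were also compared between the populations of each genotype. Among WT mice, 2 members passed as higher in LSK cells than in myeloid progenitors, where 8.08% of all genes did: Blnk by 2.18 ± 0.29 (limma adjusted p = 0.00612, and 0.111 in the fit of single arrays) and Fcrla by 0.57 ± 0.11 (adjusted p = 0.00646). Vpreb1, Igll1 and Vpreb3 differed by 0.63 ± 0.37, 0.68 ± 0.31 and 0.65 ± 0.26, and none passed in the main fit of mouse means (limma adjusted p = 0.337, 0.199 and 0.141). In the fit of single arrays, which counts repeat arrays of the same 2 mice per group, Igll1 and Vpreb3 did pass (limma adjusted p = 0.00853 and 0.00327). They also passed with the array number added as a replicate block (0.0123 and 0.00522). These differences moved with single mice: in the order Vpreb1, Igll1 and Vpreb3 they were 0.14, 0.13 and 0.56 without mouse 5, and 1.11, 1.23 and 0.75 without mouse 6, where Igll1 passed (limma adjusted p = 0.0184). The Vpreb3 difference was 0.99 without mouse 1 and 0.32 without mouse 3. In Vpreb1 and Igll1 the WT myeloid progenitor mice themselves lay 0.97 and 1.10 log2 units apart, with mouse 6 close to the LSK mice and mouse 5 lower. In WT myeloid progenitors the means lay at the 95.6th (Vpreb1), 92.4th (Igll1) and 86.3rd (Vpreb3) percentile of probes, so that these B-lineage transcripts were bright in the myeloid sort too.

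Among KO mice limma called none of the members higher in LSK cells, where 7.26% of all genes were. At an unadjusted p under 0.05, 1 member was higher, where 13.2% of all genes were (Cd79b, 0.65 ± 0.26, adjusted p = 0.145), and 1 was lower, where 13.0% were (Igll1, -0.95 ± 0.31, adjusted p = 0.0788). Cd79b passed without mouse 4 (1.05, adjusted p = 0.0146) and was 0.25 without mouse 2. Igll1 passed in several alternative fits, with adjusted p between 0.000358 and 0.313. The order of the group means was WT LSK, WT myeloid progenitors, KO myeloid progenitors, KO LSK for Vpreb1 and Igll1, while for Vpreb3 KO LSK lay above KO myeloid progenitors by 0.31 ± 0.26 (adjusted p = 0.542). The KO step of Vpreb1, at -0.45 (adjusted p = 0.525), became 0.01 without mouse 4, so that the order of its KO groups rests on that mouse. For these 3 genes the step from WT to KO within a population passed in every fit run. The steps between populations of a genotype did not pass in the main fit of mouse means. Those of Igll1 and Vpreb3 passed in the alternative fits given above. For Igll1 in KO mice these included a fit of mouse means with only the groups compared (limma adjusted p = 0.0222).

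The same profile was sought among 10334 genes whose highest group mean lay above the median probe mean. Likeness was the root mean square difference between profiles over the 8 mice after centring each gene, a description with no test. Vpreb1 and Igll1 were nearest to each other (0.42 log2 units), and Vpreb3 lay 0.76 from Vpreb1 and 0.71 from Igll1. Outside the members, Rag1, a recombinase that cuts antigen receptor genes, came first for Vpreb1 (0.61), Igll1 (0.79) and Vpreb3 (1.17). The sulfite oxidase gene Suox came second for each (0.74, 1.02 and 1.33). The third was the interferon-induced Isg15 for Vpreb1 (0.82) and Igll1 (1.08), and Apol11b for Vpreb3 (1.40).

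**Figure D3:**
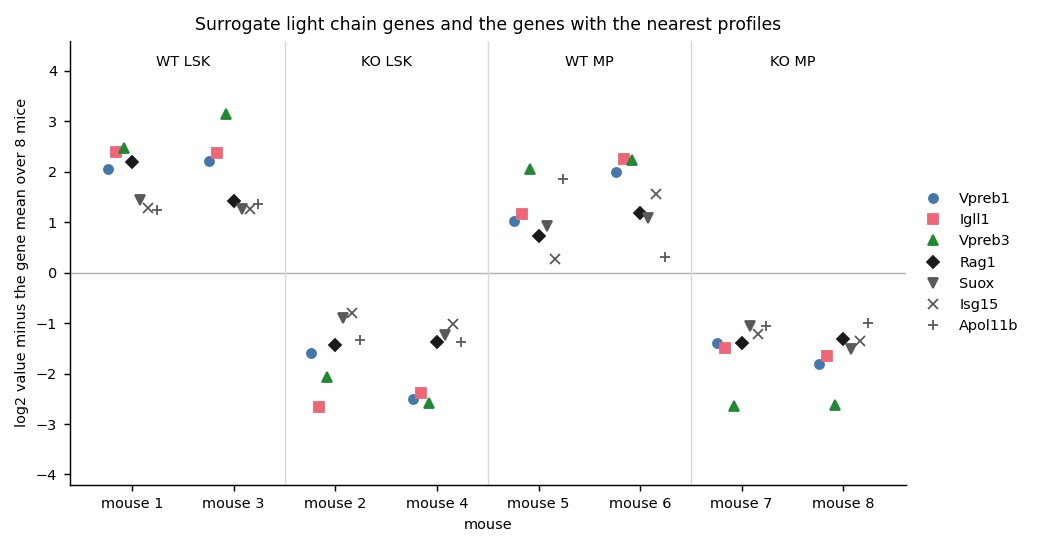
Centred profiles over the 8 mice (log2 value minus the mean of the gene) of Vpreb1, Igll1 and Vpreb3 (coloured symbols) and of the 4 genes nearest to them (dark symbols), by group. Rag1 read 9.53 and 8.76 in WT LSK mice and 5.89 to 6.01 in all KO mice, and the coloured symbols are above 0 in every WT mouse and below 0 in every KO mouse.

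The other members had smaller spans and other neighbours. Nearest to Cd79b were Morn2 (0.13), Echdc3 (0.14) and Cplx2 (0.15), to Blnk Mamdc2 (0.25), Slc35d3 (0.26) and Jam3 (0.29), and to Fcrla Ube2b (0.08), Cd101 (0.10) and 1700030K09Rik (0.12). Between members, Fcrla lay closest to Ms4a1 (0.21) and Cd79b (0.25). The Blnk neighbours were found from its mouse means, which hold the arrays that disagree.

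Among the transcription factors of the B lineage, 5 of 20 measured genes passed in LSK cells, all lower in KO mice. In myeloid progenitors 2 of 20 passed, also lower (list medians -0.34 and -0.11). Over all genes limma called 2.90% lower in LSK cells and 1.74% in myeloid progenitors, shares to set beside the counts of this and the later lists. Ebf1, which specifies the lineage and is known to drive surrogate light chain genes, read 8.37 and 8.32 in WT against 6.28 and 6.32 in KO LSK mice, and 7.88 and 7.88 against 6.20 and 6.27 in myeloid progenitors. The changes were -2.04 ± 0.14 and -1.64 ± 0.14 (limma adjusted p = 7.56e-05 and 0.000261). Spib, an Ets factor of B and plasmacytoid dendritic cells, changed by -1.49 ± 0.20 and -1.20 ± 0.20. Its call in myeloid progenitors was lost when mouse 6 (-0.99) or 8 (-1.16) was left out. It was also lost with eBayes without trend and robust (limma adjusted p = 0.0857).

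Irf4, Bach2 and Lef1 were the other factors called in LSK cells. Irf4, which acts after pre-B receptor signalling, fell by 1.48 ± 0.18, and Lef1 by 0.38 ± 0.05, with its KO mean at the low end. Bach2, a repressor of plasma cell genes, fell by 1.34 ± 0.25 (limma adjusted p = 0.0141). Its call was lost when mouse 1 (-1.25, adjusted p = 0.0859) or 2 (-1.30, adjusted p = 0.0799) was left out and in the fit of single arrays (adjusted p = 0.219). The E2A gene Tcf3 (0.28 and 0.16) did not pass. Pax5, which fixes B-cell commitment after Ebf1, read 6.22 to 6.45 in all mice, with changes of 0.10 and -0.16 (adjusted p = 0.664 and 0.591).

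**Figure D4:**
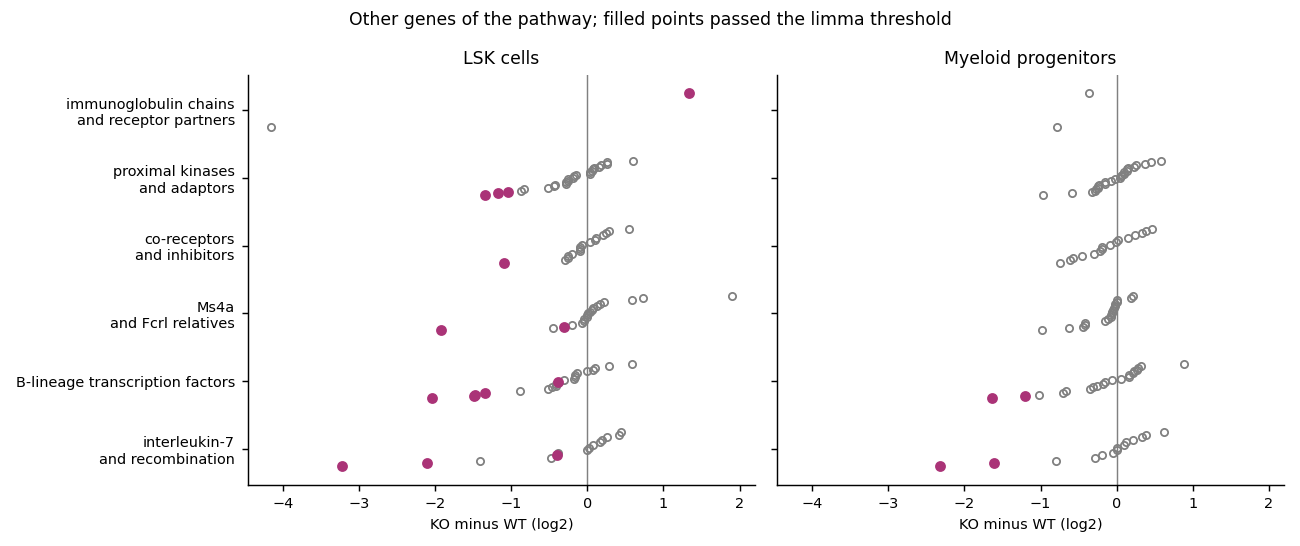
Change with the genotype (KO minus WT, log2) of each measured gene of the 6 pathway lists, in LSK cells (left) and myeloid progenitors (right), with filled points for genes past the limma threshold. In myeloid progenitors 4 points are filled, Ebf1, Spib, Rag1 and Il7r, and all 4 lie at -1.20 or below.

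In the list of interleukin-7 signalling and recombination genes, 3 of 14 passed in LSK cells and 2 of 14 in myeloid progenitors, all lower (list medians 0.00 and 0.01). Rag1 changed by -3.22 ± 0.24 and -2.32 ± 0.24 (limma adjusted p = 0.000152 and 0.000874), to KO means at the low end. Il7r, the receptor chain for the cytokine that B progenitors need, read 9.16 and 9.33 in WT against 7.35 and 6.93 in KO LSK mice. It changed by -2.11 ± 0.24 in LSK cells and by -1.61 ± 0.24 in myeloid progenitors. The latter call was lost without mouse 8 (-1.55) and with eBayes without trend and robust (limma adjusted p = 0.0582). Rag2, the partner of Rag1, fell by 0.40 ± 0.07 in LSK cells (adjusted p = 0.00729) to a KO mean at the low end, and the call was lost with eBayes without trend and robust (adjusted p = 0.0586) and with mice 1 and 5 removed (-0.36, adjusted p = 0.0578). Dntt, which adds bases at gene junctions, had a change of -1.41 in LSK cells without passing (adjusted p = 0.0756), and the cyclin genes Ccnd2 and Ccnd3 had changes of -0.01 and 0.26.

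Downstream of the receptor, 3 of 25 measured kinases and adaptors passed in LSK cells, all lower (median -0.19): the PI3K adaptor Dapp1 (-1.34 ± 0.21), the scaffold Bank1 (-1.18 ± 0.12, KO mean at the low end) and the Ras activator Rasgrp3 (-1.04 ± 0.17). None of the 25 passed in myeloid progenitors by limma (median 0.04; at an unadjusted p under 0.05, 1 was higher and 1 lower, against 4.88% and 6.56% of all genes). The kinase gene Btk had changes of -0.52 and 0.07 (adjusted p = 0.188 and 0.981) and its substrate gene Plcg2 of 0.18 and 0.14 (adjusted p = 0.773 and 0.937). With mice 1 and 5 removed, the Dapp1 change kept its size but did not pass (-1.34, adjusted p = 0.0636).

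Of 16 measured co-receptors and inhibitors, 1 passed in LSK cells, the inhibitory receptor gene Btla (-1.10 ± 0.22, limma adjusted p = 0.0172). None passed in myeloid progenitors (1 higher and 3 lower at an unadjusted p under 0.05, against 4.88% and 6.56% of all genes). The Btla call was lost when mouse 1 was left out (-1.01), when mouse 4 was (-1.0) and with mice 1 and 5 removed (-1.01). Cd22 had changes of -0.20 and -0.57 without passing. Among 19 measured relatives of Ms4a1 and Fcrla, Fcrl1 fell by 1.92 ± 0.24 in LSK cells (limma adjusted p = 0.00161). Ms4a7 fell by 0.31 ± 0.06 (adjusted p = 0.0222), to a KO mean of 6.08 at the low end. The Ms4a7 call was lost when mouse 1 (-0.26) or 2 (-0.28) was left out. It was also lost with only the groups compared (limma adjusted p = 0.0834) and with eBayes without trend and robust (0.0911). None of these relatives passed in myeloid progenitors (3 lower at an unadjusted p under 0.05, against 6.56% of all genes). The list medians were 0.01 and -0.06.

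Of the immunoglobulin chains and receptor partners, 2 genes were measured, and Ighm, Igkc and the lambda chains were not analysed here. Jchain, which joins secreted antibody units, read 12.67 and 12.69 in WT LSK mice, 9.81 and 7.22 in KO LSK mice, 7.34 and 5.98 in WT and 5.92 and 5.84 in KO myeloid progenitor mice. Its LSK change of -4.16 ± 0.95 did not pass (limma adjusted p = 0.112), as the KO mice lay 2.59 log2 units apart. Galectin-1, a binding partner of the pre-B receptor encoded by Lgals1, rose by 1.33 ± 0.21 in LSK cells (adjusted p = 0.006), a call lost with mice 1 and 5 removed (1.10, adjusted p = 0.0908).

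Some markers of other cells were lower in KO mice, as the surrogate light chain genes were, and many others did not pass. What part such cells had in the member changes was not tested. Of 9 measured B-cell markers outside the members, 2 passed as lower in KO LSK cells (Ebf1, Bank1) and 1 as higher (Fcer2a, 1.41 ± 0.23). The Fcer2a call was lost with mice 1 and 5 removed (1.55). The other B-cell markers did not pass, and in myeloid progenitors only Ebf1 passed, as lower. At an unadjusted p under 0.05, 1 of the 9 was higher and 5 lower in LSK cells, against 7.37% and 9.21% of all genes. The mean of these 9 markers ran from 8.13 to 8.16 in WT LSK mice and 7.73 to 7.80 in KO LSK mice. It ran from 7.85 to 7.88 in WT and 7.45 to 7.46 in KO myeloid progenitor mice. The mean of 6 early lymphoid markers ran from 9.89 to 10.20, 8.76 to 8.95, 8.38 to 8.82 and 7.70 to 7.76 in the same order, with 3 members lower in LSK cells and 2 in myeloid progenitors. The means of both lists were lower in KO mice of each population with no overlap, as the surrogate light chain genes were. Among single genes, 20.9% in LSK cells and 20.8% in myeloid progenitors had both KO mice below both WT mice, which bears on list means here and below. Within the early lymphoid list, Rag1 (-3.22 and -2.32) and Il7r (-2.11 and -1.61) changed most, and Flt3 changed by 0.16 and 0.12.

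Some markers of plasma cells and plasmacytoid dendritic cells passed, and the means of both lists were lower in KO LSK mice. Over all genes, 2.90% passed as lower in LSK cells and 1.74% in myeloid progenitors. Of 6 plasma cell markers, 2 passed as lower in LSK cells: Irf4, given above, and Tnfrsf17, the receptor BCMA (-2.84, limma adjusted p = 0.00337). Their mean was 9.82 to 10.03 in WT and 7.99 to 8.61 in KO LSK mice, a gap to which Jchain added most without passing. In myeloid progenitors the means of 7.88 to 8.13 and 7.79 to 7.91 overlapped. The syndecan gene Sdc1 passed as higher in KO mice there (0.87 ± 0.18, limma adjusted p = 0.0288). That call was lost without mouse 5, 6 or 8 (0.81, 0.93 and 0.69). At an unadjusted p under 0.05, 1 of the 6 markers was higher in KO myeloid progenitors and 1 lower, against 4.88% and 6.56% of all genes.

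Of 8 plasmacytoid dendritic markers, 3 passed as lower in LSK cells (Spib, Ccr9 and Bst2) and 3 in myeloid progenitors (Spib, Bst2 and Tcf4). The Bst2 calls were lost in many alternative fits (adjusted p up to 0.219 in LSK cells and 0.389 in myeloid progenitors), that of Ccr9 when mouse 1 or mouse 4 was left out (adjusted p = 0.0682 and 0.0539) and that of Tcf4 when mouse 6 was (adjusted p = 0.0528). The list mean was 8.83 to 8.89 in WT against 8.01 to 8.35 in KO LSK mice, and 8.56 to 8.61 against 7.92 to 8.02 in myeloid progenitors, with no overlap.

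Of 9 myeloid progenitor markers, 2 passed as higher in KO LSK cells, the protease genes Elane (1.91 ± 0.39, limma adjusted p = 0.0311) and Ctsg (1.21 ± 0.29, adjusted p = 0.0471). Both calls were lost in many alternative fits, with adjusted p up to 0.186 and 0.267. At an unadjusted p under 0.05, 2 of the 9 markers were higher in KO LSK cells and 0 lower, against 7.37% and 9.21% of all genes. The means of the list, 11.08 to 11.66 in WT and 11.65 to 12.02 in KO LSK mice, overlapped. The mean of 6 T cell markers was 6.69 to 6.88 in WT and 6.47 to 6.59 in KO LSK mice, lower with no overlap, and 6.58 to 6.59 against 6.49 to 6.62 in myeloid progenitors. Cd3d, a chain of the T cell receptor complex, passed as lower in LSK cells (-0.97 ± 0.20, adjusted p = 0.0272), a call lost without any 1 of mice 3 to 8 (adjusted p up to 0.0979 over its alternatives). Of 4 natural killer markers, Nkg7 passed as higher (1.14) and Gzma as lower (-0.83) in LSK cells, with adjusted p up to 0.0736 and 0.181 over their alternatives, and neither of the 2 erythroid markers passed. Of 7 LSK markers, limma called none in LSK cells (0 higher and 2 lower at an unadjusted p under 0.05, against 7.37% and 9.21% of all genes), and 1 passed as lower in myeloid progenitors (Cd34, -1.18), a call lost without mouse 8. No marker can read 0 on these arrays, whose lowest value was 5.66, and the lists share genes with each other and with the pathway lists.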

How the data were processed

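Log2 expression values were deposited by the authors, and limma is named without a version per the submitters' processing notes. The scale and the normalization were read from the values, which run from 5.66 to 15.93. Sorted values of the arrays lie within 0.0451 of each other, as quantile normalization would leave them. The sources used here state no background correction or filter. Probe symbols came from the platform annotation, updated through RefSeq: 18213 of 22439 probes matched a current symbol, 2126 a synonym, 36 kept the name on the array and 2064 had none. A gene was its brightest probe.

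Arrays of a mouse were averaged, and a linear model with 1 coefficient for each of the 4 groups was fitted (limma 3.58.1, R 4.3.3; lmFit, eBayes with trend and robust; residual df 4, median prior df 6.91), with Benjamini-Hochberg adjustment over all probes and a threshold of 0.05. Errors are limma SEs. The labels name separate mice, 2 per group, and that number limits the precision of the comparisons between groups. Array numbers did not pair the arrays: deviations from mouse means on arrays of the same number had a median r of 0.00567, against 0.00488 for other numbers.

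The members, the 15 lists and the naming rule were chosen with earlier results of these data known. All members were named. List genes past the threshold could be named, at most 5 per list and contrast, with up to 2 well-known genes that did not pass, as were the 3 profiles nearest to each member spanning at least 1 log2 unit. Genes not on the arrays by symbol were not analysed here.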

Additional observations from a re-analysis of the deposited data

How the results depend on the processing

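Vpreb1, Igll1 and Vpreb3 were called lower in KO mice of both populations in every alternative fit run. In LSK cells 6 members were called lower, 5 to 7 without 1 mouse and 3 among probes above the 50th percentile, a filter that removes Blnk, Ms4a1 and Fcrla. In myeloid progenitors 5 were called, 3 to 6 without 1 mouse, and 3 with eBayes without trend and robust, among probes above the 50th percentile or without both mice with a Kdm5d signal. With the mouse as a random block, and also with the array number added as a replicate block, 1 member differed between the populations (Igll1), against 0, and 0 to 1 without 1 mouse. The same fits called 4 members higher in WT LSK cells (Igll1, Vpreb3, Cd79b and Fcrla), against 2 (2 to 3 without 1 mouse), while the median array of each mouse gave 1 and the filter at the 50th percentile 0. They also called 1 member (Cd79b) higher in KO LSK cells, against 0 (0 to 1 without 1 mouse). The replicate block lost the Blnk call in LSK cells and in the WT comparison and gained Cd79b in both populations, and changed no other KO minus WT call of a member. Signs that reversed belong to differences that did not pass: Vpreb1 between KO populations without mouse 4 (0.01, range -0.91 to 0.01 without 1 mouse), the population difference of Cd79a without mouse 6 (-0.05) or 8 (-0.01; -0.05 to 0.28) and of Cd79b without mouse 2 (-0.22; -0.22 to 0.58) or the Kdm5d mice (-0.02), and Blnk in myeloid progenitors without mouse 6 (0.03) or 7 (0.02; -0.12 to 0.03). The fits with the mouse as a random block count repeat arrays of the same 2 mice per group. Where a call changed, the cause was not tested beyond the samples or probes removed. The alternative with other probes of a gene could not be run, since each member has 1 probe. Readings at the low end of the arrays limit Vpreb3, Blnk, Ms4a1 and Fcrla in KO mice.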
